A study of Homo sapiens with 32 samples.

Results

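The genes described here are MYC, its relatives and partner, and a set of genes that make ribosomes, 33 in all. They were taken from the deposited count tables by gene symbol, from a list chosen with earlier results of these data known. Of the 33 members, 33 were found among the 25559 symbols of each table. A filter on low counts kept 17801 symbols for testing, and 33 of the 33 members passed it. By role, 3 members are MYC, MYCN and MAX, 5 serve RNA polymerase I, 7 belong to small nucleolar RNA particles or the nucleolar scaffold, 6 process the small ribosomal subunit, 9 assemble the large subunit, and 3 make polyamines or pyrimidines.

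The study treated 4 human T-cell lines with romidepsin, an inhibitor of histone deacetylases, and azacitidine, a cytidine analogue that traps DNA methyltransferases. Per the labels, HH and H9 are lines of cutaneous T-cell lymphoma, PF382 is one of T-cell acute lymphoblastic leukemia, and TLOm1 derives from adult T-cell leukemia. Each line gave 8 libraries, 1 for each condition, and 32 libraries were used. Cells were collected after 96 hours in every group, with romidepsin given once at the start and azacitidine every 24 hours.

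The untreated group had 1 library from each line (n = 4), and so did the romidepsin group, which received 1.25 nM in PF382 and 1 nM in TLOm1, HH and H9. Azacitidine was given alone at 125 and 250 nM in 4 of 4 lines, at 500 nM in PF382 and TLOm1 (n = 2) and at 50 nM in HH and H9 (n = 2). The combination groups had the same azacitidine doses with romidepsin, at 1.25 nM in PF382 and HH and at 1 nM in TLOm1 and H9. Dose numbers of the combinations carry no unit in their labels and were read as nM. With 1 library for each condition and line, the lines served as replicates in the comparisons over lines. There the fits took their error from all 32 libraries, so that libraries of a line at different doses counted as separate. A p-value thus measures the spread of libraries around the terms for line and treatment. It does not measure the spread between 4 lines alone, nor that between cultures of 1 line. For drug effects within single lines, libraries of a line at different doses took the place of replicates. Those p-values do not measure the spread between cultures of 1 condition. In such bulk RNA, fewer cells with a transcript and less of it per cell cannot be told apart.

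MYC pairs with MAX and binds DNA at a short sequence called the E-box, and many genes for ribosome production and nucleotide supply are among its best known targets. Ribosomes are built in the nucleolus, where RNA polymerase I copies ribosomal RNA, guide particles modify it, and processing factors cut and fold it into the small and large subunits. Lymphoid leukemias and lymphomas often depend on high MYC activity, and nucleolar output follows cell growth closely.

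Total counts per library ran from 16175077 to 32496676, so that 3 counts corresponded to 0.0982 to 0.196 CPM (counts scaled by TMM-adjusted library size). Levels below are in CPM, and they are compared between libraries for 1 gene at a time. Of 14 T-cell markers listed, 11 were measured, and their summed level lay between 1052 CPM in a TLOm1 library and 2709 CPM in a PF382 library. CD3E, CD247, ZAP70 and LAT had counts in 32 of 32 libraries, while LCK was at 0 in 7 libraries and CD3G in 3. Erythroid and megakaryocyte markers summed to at most 0.644 CPM, with PF4 at 0 in 32 libraries. Summed B-cell markers reached 473 CPM in HH and stood at 431 CPM in its untreated library. Summed epithelial and fibroblast markers moved with treatment in PF382, from 12.0 CPM untreated to 187 CPM at most. The untreated and highest sums were 143 and 276 CPM in TLOm1, 108 and 207 CPM in H9, and 1.31 and 8.13 CPM in HH. Romidepsin alone gave the lowest sums in TLOm1 and H9, at 92.5 and 96.5 CPM. The part of these markers in the results below was not tested.

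MYC differed in level between the lines and was lower with azacitidine at 250 nM in each of them. Across its 8 libraries MYC ranged from 558 to 857 CPM in H9, from 325 to 631 CPM in HH, from 125 to 378 CPM in PF382 and from 119 to 197 CPM in TLOm1. H9 and TLOm1, at the ends of this order, did not overlap, whereas each pair of neighbours did. In untreated cells MYC stood at 853 CPM in H9, 468 CPM in HH, 355 CPM in PF382 and 182 CPM in TLOm1. With azacitidine at 250 nM it was 558 CPM in H9, 325 CPM in HH, 231 CPM in PF382 and 153 CPM in TLOm1. The level was lower than untreated in 4 of 4 lines, by 0.24 to 0.62 on the log2 scale (log2 ratios -0.24 in TLOm1, -0.53 in HH, -0.61 in H9 and -0.62 in PF382).

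**Figure D1:**
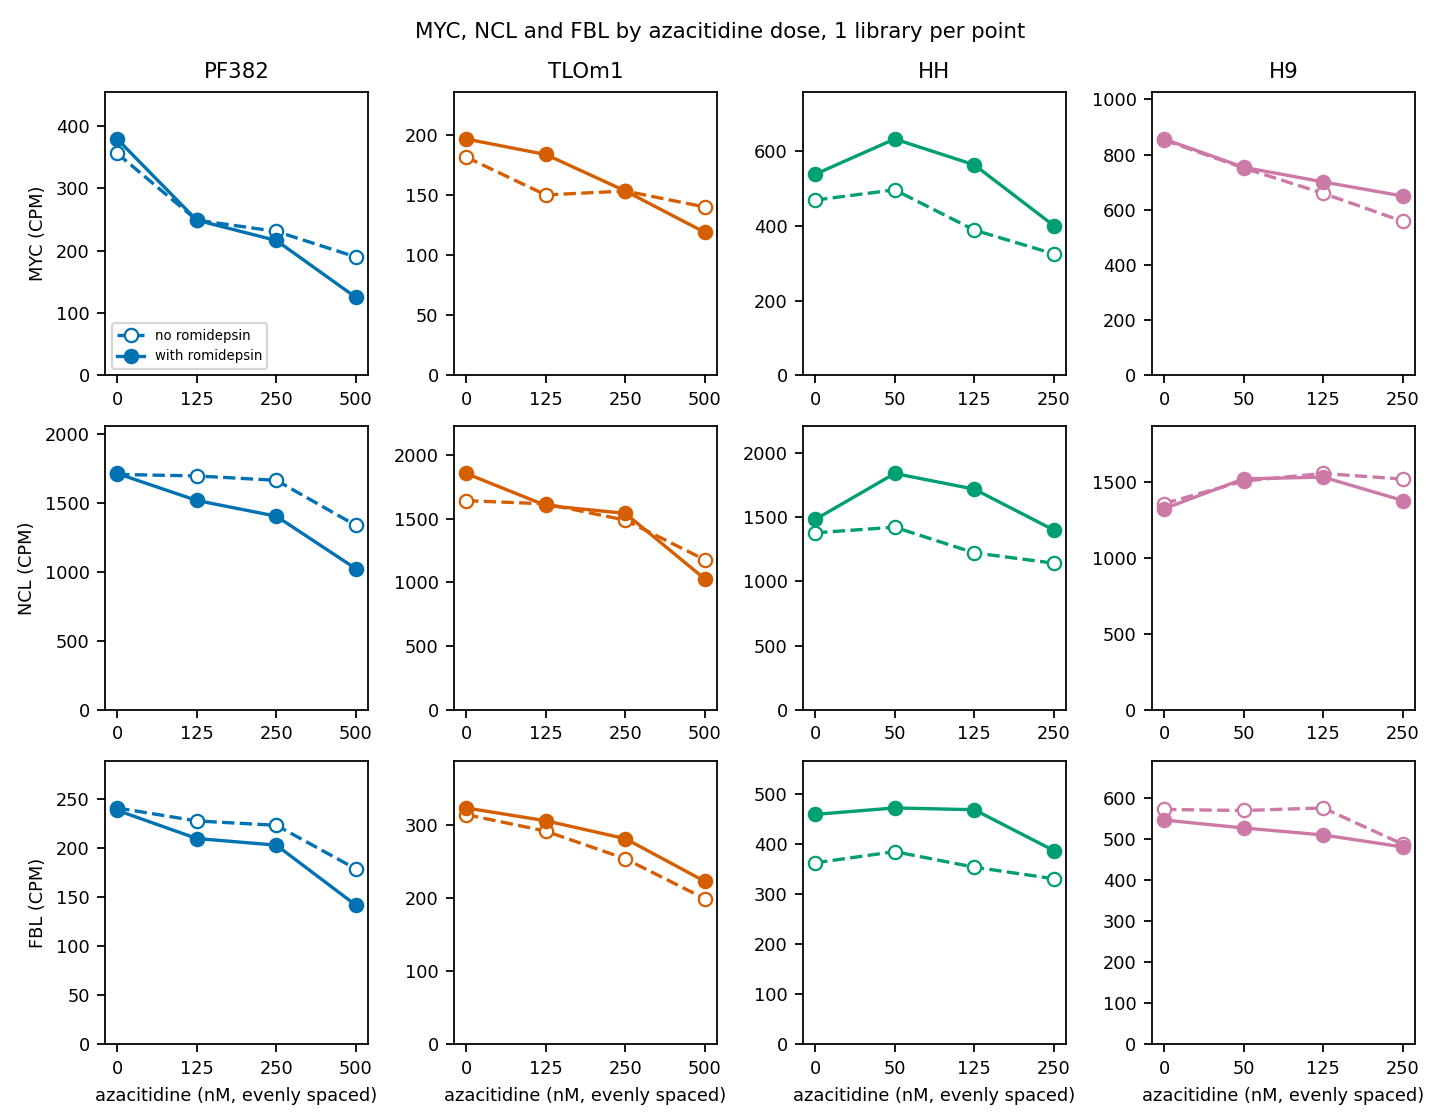
MYC, NCL and FBL levels (vertical axes, CPM, starting at 0) against azacitidine dose (horizontal axes, nM, doses evenly spaced) in each cell line, with open symbols and dashed lines for no romidepsin and filled symbols with solid lines for romidepsin. Each point is 1 library. In PF382 MYC stood at 355 CPM untreated and 125 CPM under romidepsin with 500 nM azacitidine, and in HH the 4 libraries with romidepsin lay above their dose-matched partners.

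Tested over the 4 lines with edgeR's quasi-likelihood test, MYC fell with azacitidine at 250 nM to 0.703 times the untreated level (log2 change -0.51, SE 0.12, adjusted p = 0.0115). The mean level was 317 CPM ± 176 (SD, n = 4) against 465 CPM ± 285 (SD, n = 4) untreated, and these SDs include the difference between lines. The combination at 250 nM lowered MYC to 0.756 times untreated (log2 change -0.40, SE 0.12, adjusted p = 0.0161). MYC was also lower under the combination than under romidepsin alone, at 0.706 times (log2 change -0.50, SE 0.12, adjusted p = 0.00667), and it was the 1 member called there, beside 14.1% of all genes (8.92% higher and 5.21% lower). At 125 nM the estimate was -0.37 with azacitidine (SE 0.12, adjusted p = 0.212) and -0.13 with the combination (SE 0.12, adjusted p = 0.552), and romidepsin alone gave 0.10 (SE 0.12, adjusted p = 0.993). Without HH or without H9 the change at 250 nM azacitidine no longer passed the threshold, and its estimates over all alternatives lay between -0.60 and -0.46. The change under the combination no longer passed without PF382 or without H9, with estimates between -0.47 and -0.30. With only the compared groups in the fit, or with no cell line term, no MYC change at 250 nM passed.

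MYCN, a paralogue of MYC best known from neuroblastoma, was much more uneven between lines than MYC. Untreated TLOm1 cells had 30.6 CPM (718 counts), against 3.10 CPM (71 counts) in HH, 0.309 CPM (8 counts) in H9 and 0.204 CPM (5 counts) in PF382. TLOm1 libraries (19.3 to 43.2 CPM) did not overlap those of any other line, and neither did HH libraries (2.75 to 8.09 CPM). PF382 (0.172 to 2.66 CPM) and H9 (0.122 to 0.977 CPM) overlapped each other. In PF382 the level rose with azacitidine from 0.204 CPM untreated and 0.172 CPM with romidepsin to 0.794, 0.941 and 1.89 CPM at 125, 250 and 500 nM. With romidepsin added, the same doses gave 0.762, 1.58 and 2.66 CPM (20, 41 and 74 counts).

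In the fit of each line, azacitidine at any dose raised MYCN in PF382 7.42-fold (log2 change 2.89, SE 0.59, adjusted p = 0.00314). The log2 change was 0.13 in TLOm1 (SE 0.30), 0.07 in HH (SE 0.33) and 0.45 in H9 (SE 0.56), none past the threshold. The test of equal azacitidine effects in the 4 lines was past the threshold for MYCN (adjusted p = 0.0332), and for 10.7% of all genes tested. It was the only member called in that test, and leaving out 1 dose of 1 line at a time gave between 0 and 5 members, with 0 without TLOm1 at 250 nM, HH at 125 nM or H9 at 125 nM and 5 without TLOm1 at 125 nM. Over the 4 lines together, MYCN did not pass in any comparison with untreated cells, with log2 changes of 0.37 for romidepsin (SE 0.51, adjusted p = 0.996), 0.51 for azacitidine at 125 nM (SE 0.50, adjusted p = 0.823) and 0.85 at 250 nM (SE 0.50, adjusted p = 0.35). For the combination they were 0.59 at 125 nM (SE 0.51, adjusted p = 0.531) and 0.78 at 250 nM (SE 0.51, adjusted p = 0.284).

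MAX, the partner that MYC and MYCN need to bind DNA, also differed in level between lines. Its untreated level was 90.7 CPM in PF382, 61.8 CPM in H9, 59.6 CPM in HH and 40.9 CPM in TLOm1, and its highest level over 32 libraries was 94.0 CPM, in PF382. No comparison with untreated cells called MAX. Its log2 change was 0.08 with romidepsin (SE 0.07, adjusted p = 0.98), -0.17 with azacitidine at 125 nM (SE 0.07, adjusted p = 0.417) and -0.19 at 250 nM (SE 0.07, adjusted p = 0.122). With the combination it was 0.07 at 125 nM (SE 0.07, adjusted p = 0.593) and 0.02 at 250 nM (SE 0.07, adjusted p = 0.878).

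Over the 4 lines together, few members of the ribosome biogenesis set changed at doses that each line received. Romidepsin alone called 0 of 33 members (0.0169% of all genes tested), 0 of them at an unadjusted p under 0.05, and azacitidine at 125 nM called 0 (0.461%), 4 of them at an unadjusted p under 0.05. Azacitidine at 250 nM called 3 of 33 (5.99%, with 3.85% higher and 2.14% lower), namely MYC lower and POLR1A and ODC1 higher. The median log2 change of the members was 0.04, beside 0.03 over all genes tested. The combination at 125 nM called 0 (7%, with 4.4% higher and 2.6% lower), 3 at an unadjusted p under 0.05. At 250 nM it called 3 members, MYC, NOB1 and CAD, all lower, with 23% of all genes called and 8.76% lower, and the member median was -0.04, beside 0.04 over all genes tested. DESeq2 and limma-voom gave 0 members in the same 3 comparisons in which edgeR gave 0. With only the compared groups in the fit, the counts at 250 nM were 0 with azacitidine and 0 with the combination, in place of 3 and 3. The fit with no cell line term gave 0 and 0 as well.

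POLR1A encodes the largest subunit of RNA polymerase I. It stood at 125 CPM in untreated HH and 218 CPM with azacitidine at 250 nM, at 90.6 and 114 CPM in PF382, at 93.4 and 118 CPM in H9, and at 145 and 148 CPM in TLOm1. The rise was 1.29-fold (log2 change 0.37, SE 0.09, adjusted p = 0.0144). It was lost when PF382, HH or H9 was left out, with only the compared groups and with no cell line term. Estimates were 0.21 to 0.48 over all alternatives.

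ODC1, ornithine decarboxylase, catalyses the rate-limiting step of polyamine synthesis. From untreated to 250 nM azacitidine its level went from 248 to 287 CPM in PF382, from 377 to 433 CPM in TLOm1, from 416 to 529 CPM in HH and from 324 to 481 CPM in H9, higher in 4 of 4 lines. The change was 1.26-fold (log2 change 0.34, SE 0.10, adjusted p = 0.0457). It did not hold without HH, without H9, with either other filter on low counts, with only the compared groups or with no cell line term.

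CAD carries out the first steps of pyrimidine synthesis. Under the combination at 250 nM CAD stood at 242 CPM in PF382, 229 CPM in TLOm1, 352 CPM in HH and 356 CPM in H9, against 281, 345, 546 and 321 CPM untreated. It was lower in 3 of 4 lines and higher in H9. The fall was to 0.803 times untreated (log2 change -0.32, SE 0.11, adjusted p = 0.0326). CAD was also the single member called when romidepsin was added to azacitidine at 250 nM, at 0.78 times the azacitidine level (log2 change -0.36, SE 0.10, adjusted p = 0.0459; 5.67% of all genes were called, 3.43% higher and 2.24% lower). Both calls were lost without PF382, TLOm1 or HH, with only the compared groups in the fit and with no cell line term.

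NOB1, the nuclease that makes the final cut in small subunit ribosomal RNA, fell under the combination at 250 nM to 0.817 times untreated (log2 change -0.29, SE 0.08, adjusted p = 0.0146). Its levels were 92.8 CPM in PF382, 100 CPM in TLOm1 and 99.1 CPM in HH, against 124, 143 and 118 CPM untreated, while H9 stood at 154 against 153 CPM. The call was lost without PF382, without TLOm1, with only the compared groups in the fit and with no cell line term.

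Whether the drugs together moved the members by other than the sum of their single effects at 250 nM was tested with an interaction term. With edgeR it called 0 members and 0% of all genes tested, with 1 member at an unadjusted p under 0.05, and DESeq2 and limma-voom called 0. The estimate was below 0 for 30 of 33 members, with a median of -0.16. These estimates come from the same libraries, so their signs are not separate observations. With 1 library for each condition and line, the interaction of MYC had an SE of 0.16 around an estimate of 0.01.

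**Figure D2:**
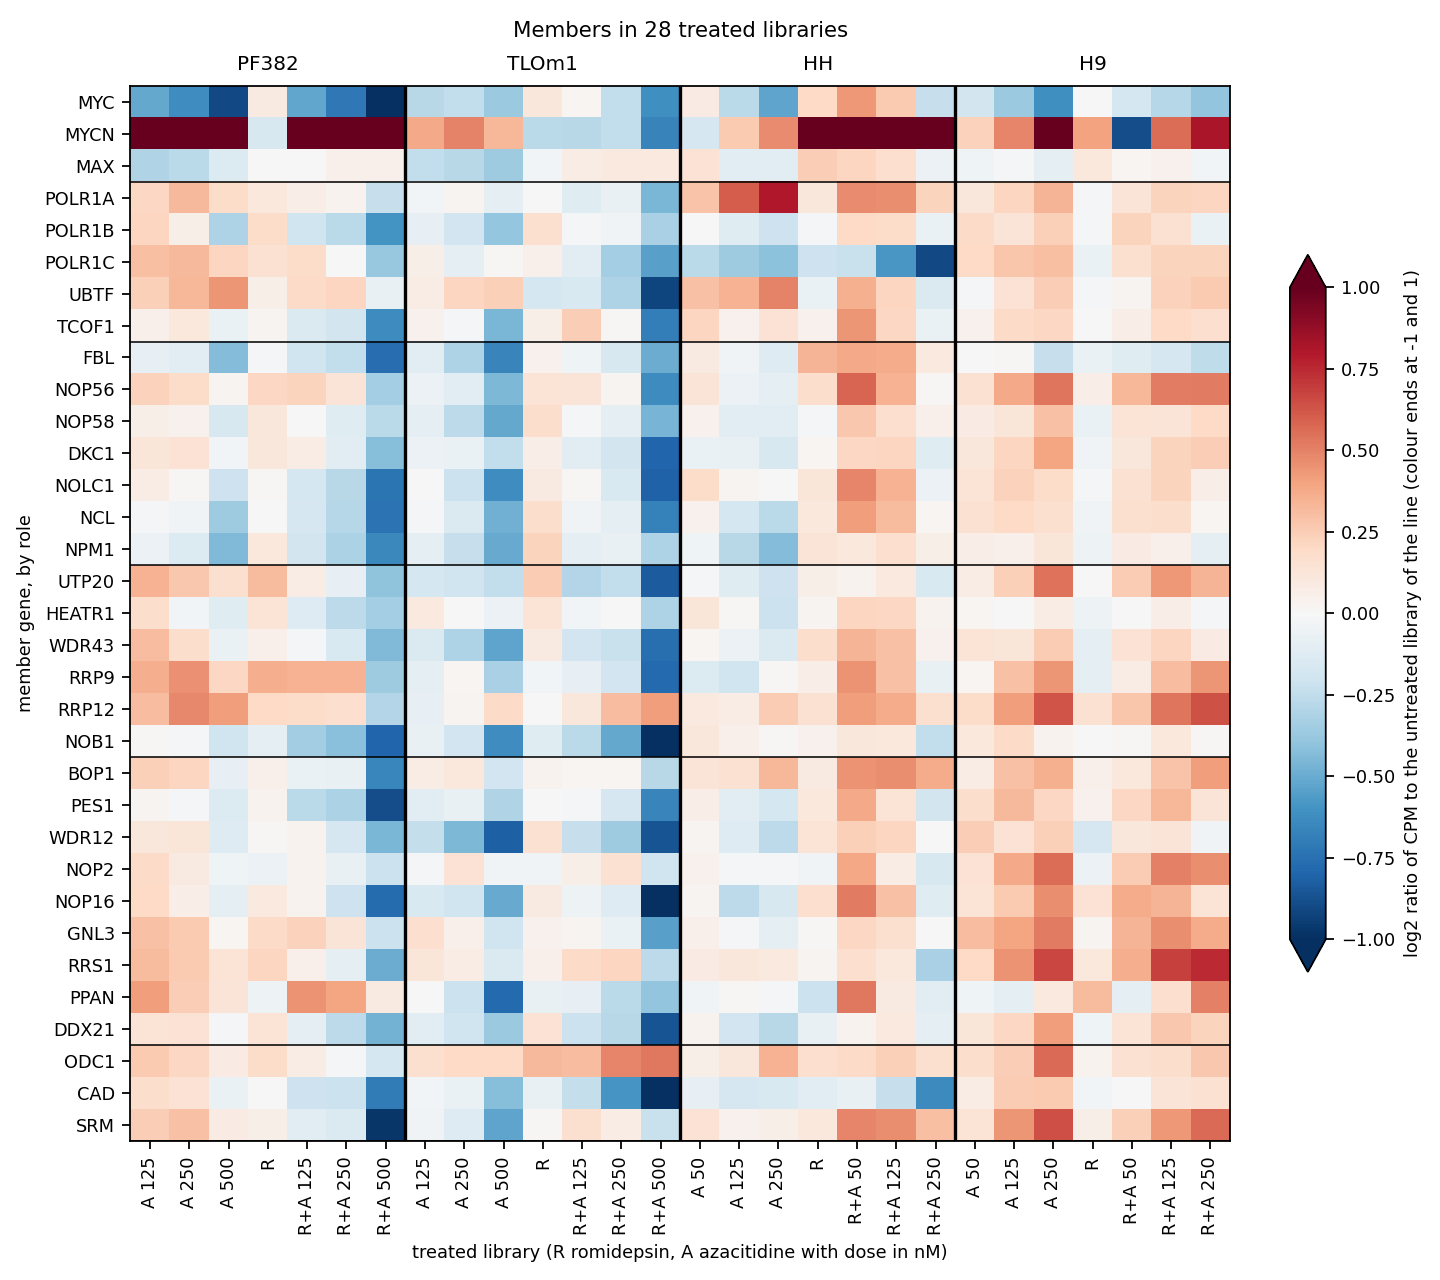
Log2 ratio of each member (rows, grouped by role) in 28 treated libraries (columns) to the untreated library of the same line, with blue below and red above untreated and colours ending at -1 and 1. The columns for romidepsin with 500 nM azacitidine were blue for 30 of 33 members in PF382 and 30 of 33 in TLOm1, and those of H9 with azacitidine at 250 nM were red for 30 of 33.

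Among the comparisons fitted over lines, most members were called between azacitidine at 250 nM and at 500 nM, the highest dose, which PF382 and TLOm1 received. Of 33 members 21 fell and 0 rose in that step, with 7.5% of all genes called, 4.73% lower and 2.77% higher, and the median log2 change was -0.35, beside 0.03 over all genes tested. The 21 were 1 of the 3 genes around MYC (MYC itself), 3 of 5 polymerase I genes, 7 of 7 nucleolar particle genes, 3 of 6 small subunit genes, 6 of 9 large subunit genes and 1 of 3 polyamine and pyrimidine genes. The fit took its error from 32 libraries. With PF382 and TLOm1 alone in the fit (16 libraries), 0 members and 0.0233% of all genes passed, with 24 members at an unadjusted p under 0.05 and a median of -0.32. Without TLOm1 0 members passed, without PF382 10, and without H9 13. With only the compared groups in the fit, or with no cell line term, 0 members passed.

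The step can be read within each line and arm, without a fit. Between the libraries at 250 and 500 nM, 27 of 33 members (81.8%) were lower in 4 of 4 steps, beside 14.7% of all genes tested. The median log2 ratio of the members was -0.17 for azacitidine alone and -0.34 with romidepsin in PF382, and -0.22 and -0.47 in TLOm1. Over all genes tested those medians lay between 0 and 0.04. Histone transcripts lacking poly(A) tails, which depend on how a library selects RNA, were higher at 500 nM in 4 of 4 steps. Their sum went from 106 to 133 CPM with azacitidine alone and from 301 to 622 CPM with romidepsin in TLOm1, and from 13.2 to 15.2 and from 19.02 to 24.26 CPM in PF382. In the fit 17 of 19 of these genes had positive estimates, with a median log2 change of 0.47, and their part in the fall of the members was not tested. MAX, POLR1C and ODC1 were lower in 3 of 4 steps, and MYCN, UBTF and RRP12 in 2 of 4.

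**Figure D3:**
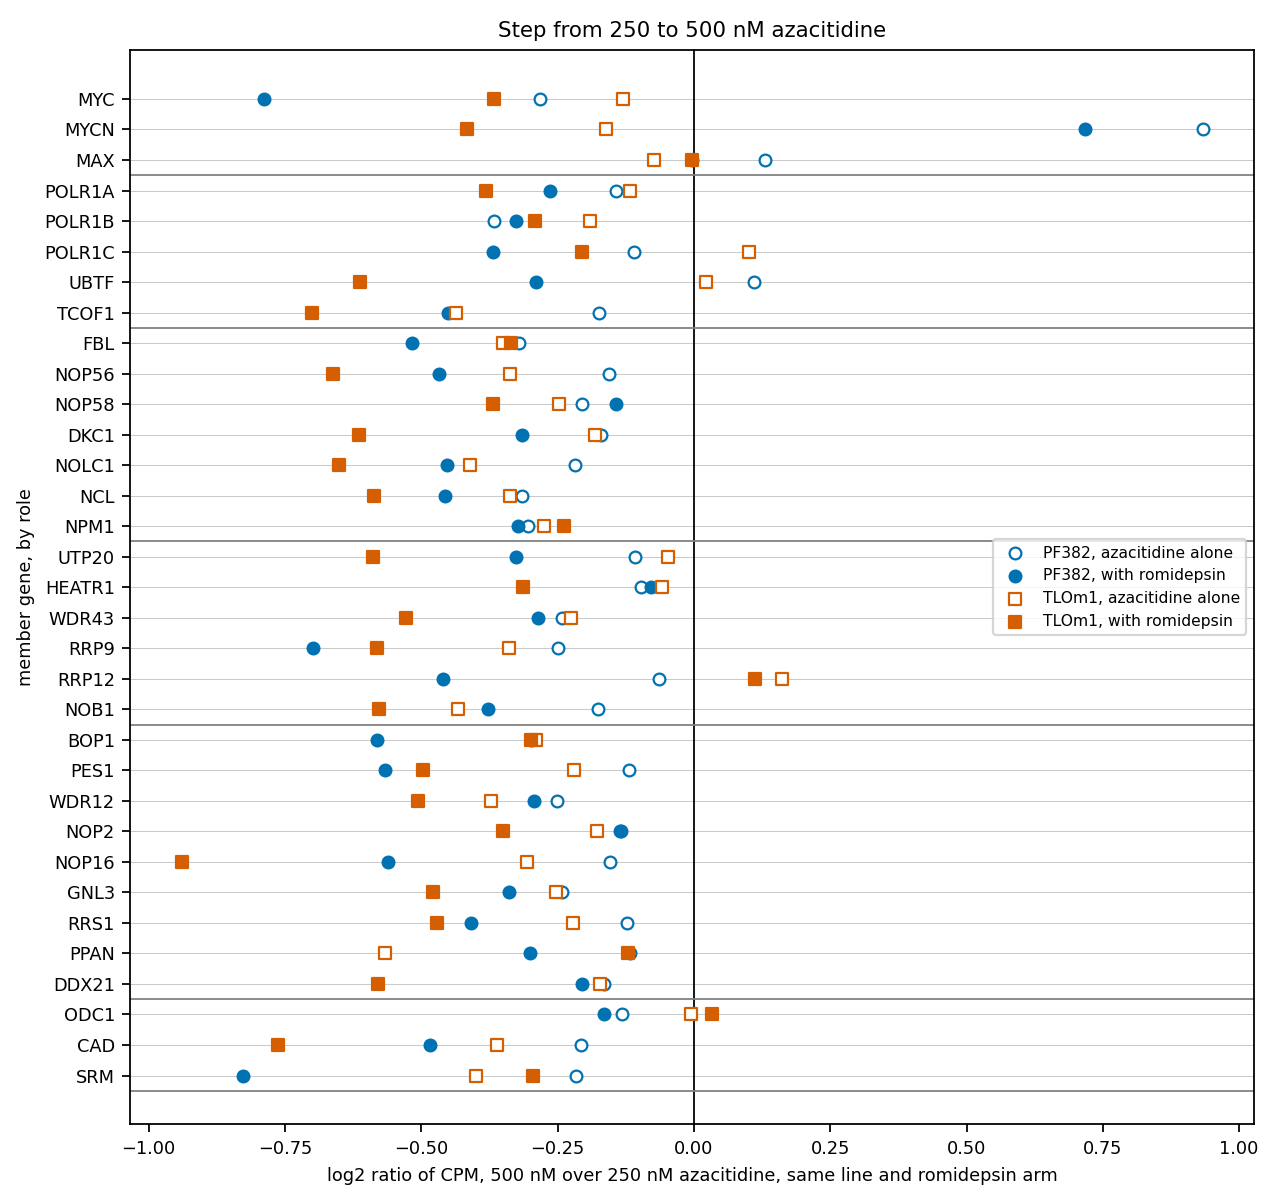
Log2 ratio of CPM at 500 over 250 nM azacitidine (horizontal axis) for each member (vertical axis, by role), as 4 points per gene: PF382 (circles) and TLOm1 (squares), open for azacitidine alone and filled with romidepsin. Of 33 members 27 have 4 of 4 points left of 0, and MYCN in PF382 lies farthest right, at 0.72 and 0.93.

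MYC went in this step from 231 to 190 CPM with azacitidine alone and from 216 to 125 CPM with romidepsin in PF382, and from 153 to 140 and from 153 to 119 CPM in TLOm1. It was lower in each of the 4 steps, and the fall was to 0.777 times (log2 change -0.36, SE 0.11, adjusted p = 0.0411). That call was lost in 9 of 12 alternatives.

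Among genes of the polymerase I machinery, TCOF1 fell most. It encodes treacle, a nucleolar protein that links transcription of ribosomal RNA to its modification. Its level went from 304 to 269 CPM and from 249 to 182 CPM in PF382 and from 228 to 169 CPM and from 233 to 143 CPM in TLOm1, in each line first for azacitidine alone and then with romidepsin. The change was to 0.725 times (log2 change -0.46, SE 0.09, adjusted p = 0.003). POLR1A and POLR1B, the catalytic subunits, fell to 0.825 and 0.8 times (adjusted p = 0.0406 and 0.0342). POLR1C had a log2 change of -0.15 (adjusted p = 0.466) and UBTF, which binds the ribosomal DNA promoter, one of -0.19 (adjusted p = 0.262). In TLOm1 UBTF went from 251 to 254 CPM with azacitidine alone and from 174 to 114 CPM with romidepsin.

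The 7 members of the small nucleolar RNA particles and the nucleolar scaffold were called as a whole group, each lower in 4 of 4 steps. NOLC1, a chaperone of these particles, went from 454 to 390 and from 371 to 271 CPM in PF382 and from 365 to 275 and from 380 to 242 CPM in TLOm1 (log2 change -0.46, SE 0.09, adjusted p = 0.00362). NCL, nucleolin, one of the most abundant nucleolar proteins, went from 1662 to 1336 and from 1402 to 1022 CPM in PF382 and from 1488 to 1177 and from 1541 to 1026 CPM in TLOm1 (log2 change -0.44, SE 0.09, adjusted p = 0.00524). For NOP56, a core protein of the particles that guide methylation, the levels were 452 and 405, 436 and 315, 303 and 240, and 334 and 211 CPM in the same order (log2 change -0.45, SE 0.10, adjusted p = 0.0124). The 4 libraries at 500 nM thus lay below their 250 nM partners for each of these genes. FBL, the methyltransferase of the same particles, fell to 0.776 times, NOP58 to 0.803 times and DKC1, the pseudouridine synthase, to 0.782 times (adjusted p = 0.0107, 0.0248 and 0.0137). NPM1, nucleophosmin, fell to 0.805 times (adjusted p = 0.0395), and since the genome holds processed copies of NPM1 its count is uncertain.

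Small subunit genes were divided. RRP9, a protein of the U3 particle that opens processing of the precursor, went from 60.3 to 50.7 and from 55.9 to 34.4 CPM in PF382 and from 85.9 to 67.9 and from 74.0 to 49.5 CPM in TLOm1 (log2 change -0.50, SE 0.11, adjusted p = 0.00843). NOB1 went from 122 to 108 and from 92.8 to 71.4 CPM in PF382 and from 125 to 93.0 and from 100 to 67.2 CPM in TLOm1 (log2 change -0.41, SE 0.08, adjusted p = 0.00324). WDR43 fell to 0.778 times (adjusted p = 0.028). UTP20 and HEATR1, large scaffold proteins of the small subunit processome, had log2 changes of -0.33 and -0.16 that did not pass (adjusted p = 0.0842 and 0.188). RRP12, which helps export the small subunit, had -0.06 (adjusted p = 0.821), with a lower level at 500 nM in both PF382 arms and a higher one in both TLOm1 arms.

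Among large subunit genes NOP16 had the steepest fall of all members that passed. It went from 21.5 to 19.3 and from 17.8 to 12.0 CPM in PF382 and from 37.1 to 30.0 and from 38.9 to 20.2 CPM in TLOm1 (log2 change -0.53, SE 0.11, adjusted p = 0.00433). BOP1, PES1 and WDR12 form a complex of their own, and each of the 3 fell. BOP1 went from 119 to 96.9 and from 97.3 to 65.0 CPM in PF382 and from 155 to 127 and from 146 to 119 CPM in TLOm1 (log2 change -0.42, SE 0.09, adjusted p = 0.00621). For WDR12 the log2 change was -0.40 (SE 0.11, adjusted p = 0.0334) and for PES1 -0.35 (SE 0.09, adjusted p = 0.0193). GNL3, nucleostemin, fell to 0.778 times and DDX21, an RNA helicase, to 0.787 times (adjusted p = 0.00602 and 0.0434). NOP2, RRS1 and PPAN had log2 changes of -0.22, -0.35 and -0.32 and did not pass (adjusted p = 0.145, 0.08 and 0.238).

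Of the metabolic members CAD fell, from 310 to 268 and from 242 to 173 CPM in PF382 and from 330 to 257 and from 229 to 135 CPM in TLOm1 (log2 change -0.47, SE 0.10, adjusted p = 0.00602). SRM, spermidine synthase, had a log2 change of -0.48 (SE 0.15) and missed the threshold (adjusted p = 0.0515). ODC1 had -0.12 (adjusted p = 0.502).

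Promoters of the members were examined for the E-box CACGTG, which reads the same on both strands. Promoter windows from RefSeq (GRCh38.p14, 300 bases, 250 before the annotated start and 50 after it) were found for 26 of 33 members, and none was used for MYC, TCOF1, RRP12, NOLC1, RRS1, BOP1 and NOP58. CACGTG occurred in 10 of 26 members with a window (38.5%), beside 8.77% of the 27305 symbols in the table and 12.2% of the tested symbols with a window. The match is a description of the sequence and not of binding. No overlap with other motifs was searched. Besides 6 members that fell in the step, the motif occurred in SRM, ODC1, NOP2 and UTP20, which did not pass there. Whether the motif goes with the fall was not tested. Stretches of 100 bases are shown for the 6 members that fell, which hold the motif close to their start. They were chosen after their values were seen, to show where it sits. Each runs 5′ to 3′ on the strand of the gene, with 80 bases before the annotated start and 20 from it on, and the capitals mark CACGTG.
FBL: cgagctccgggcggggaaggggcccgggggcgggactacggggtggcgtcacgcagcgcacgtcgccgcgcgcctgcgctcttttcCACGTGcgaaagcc
PES1: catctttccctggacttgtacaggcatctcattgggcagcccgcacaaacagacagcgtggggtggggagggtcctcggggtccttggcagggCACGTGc
RRP9: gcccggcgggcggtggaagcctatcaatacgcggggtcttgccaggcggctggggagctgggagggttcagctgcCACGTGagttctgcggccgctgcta
WDR43: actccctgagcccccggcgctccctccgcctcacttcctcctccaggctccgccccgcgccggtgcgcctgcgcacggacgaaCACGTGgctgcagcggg
GNL3: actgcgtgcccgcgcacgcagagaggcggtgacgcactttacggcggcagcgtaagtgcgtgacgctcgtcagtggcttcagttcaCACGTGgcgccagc
DDX21: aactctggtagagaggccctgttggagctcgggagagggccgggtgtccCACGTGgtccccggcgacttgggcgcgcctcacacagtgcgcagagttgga
These stretches lie at chr19:39846360-39846459 (FBL, minus strand), chr22:30591891-30591990 (PES1, minus strand), chr3:51941885-51941984 (RRP9, minus strand), chr2:28894587-28894686 (WDR43, plus strand), chr3:52685952-52686051 (GNL3, plus strand) and chr10:68956567-68956666 (DDX21, plus strand). Counting the annotated first base of the transcript as 0, the motif began at 6 in FBL, 13 in PES1, -5 in RRP9, 3 in WDR43, 6 in GNL3 and -31 in DDX21. It lay after the annotated start in FBL, PES1, WDR43 and GNL3, spanned it in RRP9 and lay before it in DDX21. GNL3 and DDX21 each had another window with a different annotated start, and that window held no CACGTG.

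Other genes of the same pathways were counted in the same step, from lists of their own, beside 4.73% of all genes lower and 2.77% higher. Of other snoRNP genes 4 of 12 fell, of other large subunit factors 13 of 53, of other small subunit factors 9 of 56, and of other polymerase I genes 3 of 17, with 0 rising in these lists. Their median log2 changes were -0.25, -0.20, -0.21 and -0.14. Of 26 other polyamine and nucleotide synthesis genes 12 fell and 1 rose. Of 79 cytosolic ribosomal protein genes, whose products the nucleolar factors assemble, 3 were called lower, a share no higher than that of all genes, with a median of -0.09. Proliferation genes moved with the step as well, since 17 of 24 fell with a median of -0.35, and their summed level at 500 nM with romidepsin was 8438 CPM in PF382 and 4169 CPM in TLOm1, the lowest of the 8 libraries in each line. Their part in the fall of the members was not tested.

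As a change per doubling of the azacitidine dose among treated libraries of a line, 17 of 33 members fell and 0 rose, where 22.9% of all genes were called and 9.8% lower. The member median was -0.08 per doubling, beside 0.01 over all genes tested. MYC had the steepest fall among the members, to 0.857 times per doubling (log2 slope -0.22, SE 0.04, adjusted p = 0.000283), and it passed in 9 of 9 alternatives. Next came NOP16 and NOLC1 (log2 slopes -0.17 and -0.17, SE 0.05 and 0.04, adjusted p = 0.0219 and 0.00422), NCL (-0.16, SE 0.04, adjusted p = 0.0054), FBL (-0.15, SE 0.03, adjusted p = 0.00263) and WDR12 (-0.14, SE 0.04, adjusted p = 0.00513). NOB1, PES1, CAD and TCOF1 had slopes of -0.14, -0.13, -0.13 and -0.12. The count rested on the highest dose and on TLOm1, since without the 4 libraries at 500 nM 1 member passed (MYC, with 10.4% of all genes), and without TLOm1 MYC alone passed. Without PF382 9 members passed and without HH 9.

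Romidepsin, matched on azacitidine dose and averaged over the doses of each line, called mostly lower members in PF382 and higher ones in HH. The doses differed, with 500 nM azacitidine in PF382 but not in HH, and without azacitidine the median ratio was 0.09 in PF382 and 0.09 in HH. In PF382 12 members fell and 1 rose (30.7% of all genes called, 11.6% lower), with a median of -0.19. In HH 9 members rose and 0 fell (27.7% called, 14% higher), with a median of 0.16. TLOm1 had 4 lower and 2 higher (32.6% called, 17.1% higher and 15.5% lower). H9 had 0 called by edgeR (4.47% called, 3.64% higher and 0.831% lower), with 1 member at an unadjusted p under 0.05. In H9 0 were also called under the other scaling and both other filters. The test of equal romidepsin effects in the 4 lines called 14 members of 33, beside 33% of all genes tested.

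**Figure D4:**
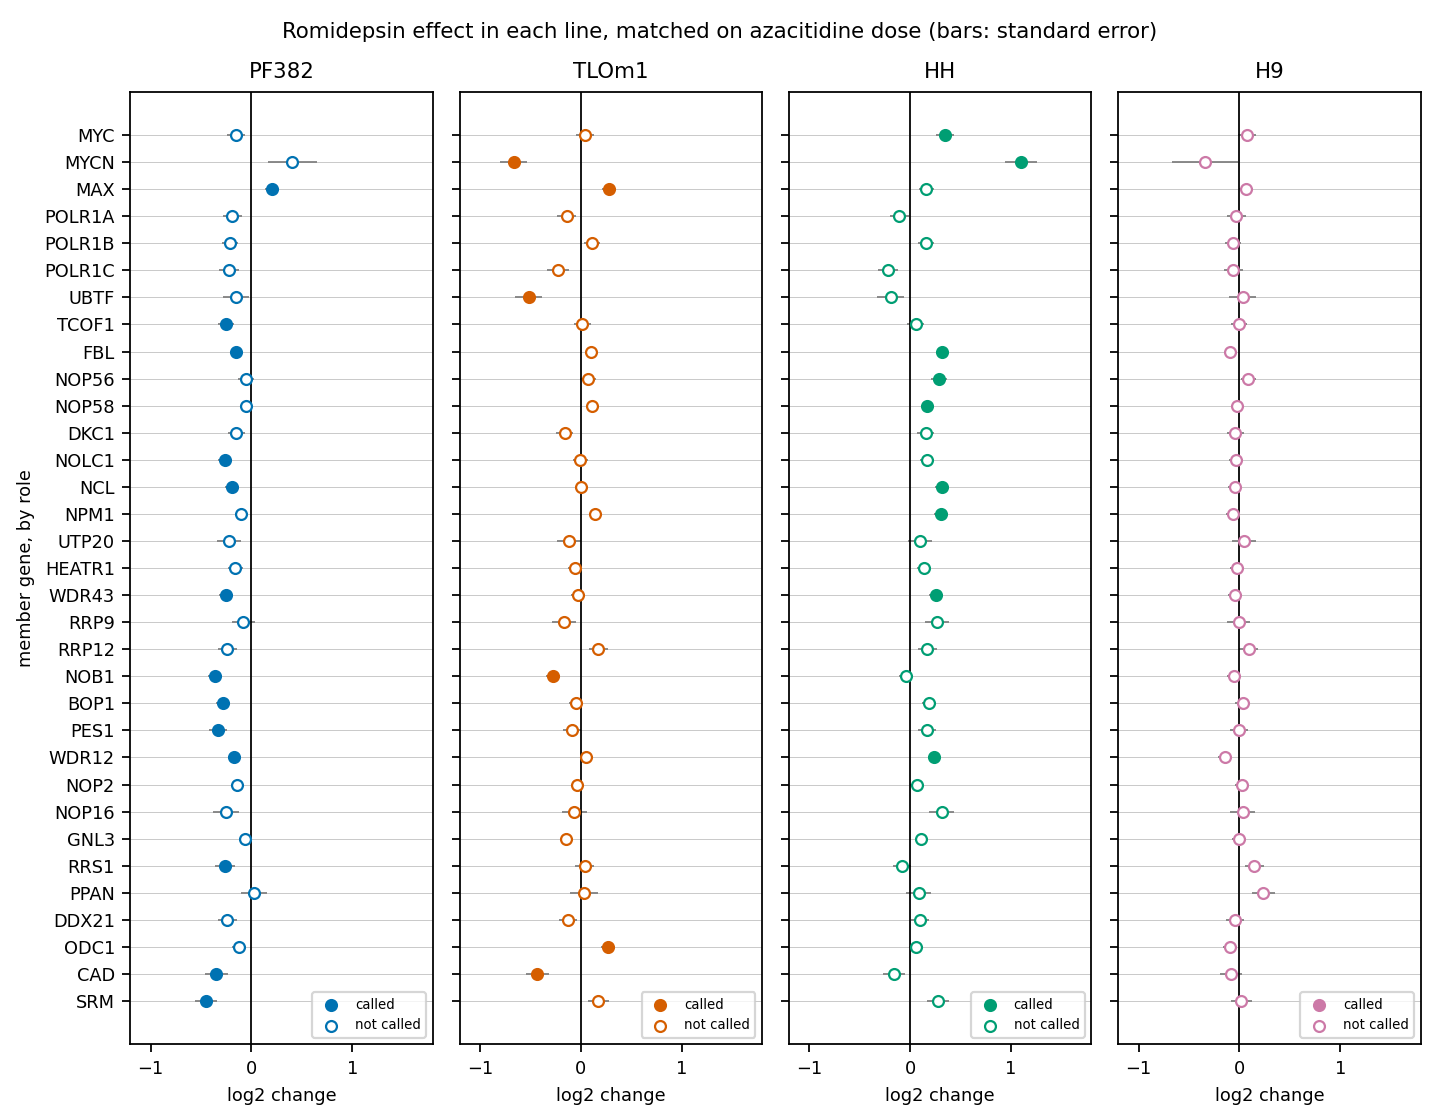
Log2 change of each member with romidepsin in each line, matched on azacitidine dose (horizontal axes), with bars for the standard error and filled symbols for members called by edgeR's quasi-likelihood test. PF382 has 12 members called lower, HH has 9 called higher, and H9 has 0 called.

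In HH, MYC was higher with romidepsin at each dose level. The levels with and without romidepsin were 537 and 468 CPM without azacitidine, 631 and 496 CPM at 50 nM, 562 and 388 CPM at 125 nM, and 400 and 325 CPM at 250 nM. The rise was 1.27-fold (log2 change 0.35, SE 0.09, adjusted p = 0.00659), and MYC did not pass in PF382 (-0.15, SE 0.09, adjusted p = 0.227), TLOm1 (0.04, SE 0.09, adjusted p = 0.751) or H9 (0.08, SE 0.09, adjusted p = 0.714). Its 4 line effects differed (adjusted p = 0.031). MYCN rose 2.14-fold in HH (log2 change 1.10, SE 0.16, adjusted p = 3.05e-05), from 2.75 to 4.34 CPM without romidepsin to between 6.6 and 8.09 CPM with it, and those ranges did not overlap. In TLOm1 MYCN fell to 0.63 times (log2 change -0.67, SE 0.13, adjusted p = 0.000563), from 30.6 to 43.2 CPM without to 19.3 to 25.8 CPM with romidepsin, again without overlap. The line effects on MYCN differed with an adjusted p of 1.69e-05. MAX rose 1.15-fold in PF382 and 1.21-fold in TLOm1 (adjusted p = 0.0301 and 0.00587).

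FBL showed the difference between lines most clearly among the nucleolar genes. In HH it ranged from 331 to 385 CPM without romidepsin and from 387 to 472 CPM with it, so that the 4 libraries with the drug lay above the 4 without. It rose 1.25-fold (log2 change 0.32, SE 0.05, adjusted p = 9.81e-05), and in PF382 it fell to 0.901 times (log2 change -0.15, SE 0.05, adjusted p = 0.0318). The test of equal effects gave an adjusted p of 0.000177. NCL rose 1.24-fold in HH and fell to 0.873 times in PF382 (adjusted p = 0.000947 and 0.0251, test of equal effects 0.00153). WDR43 rose 1.2-fold in HH and fell to 0.842 times in PF382 (test of equal effects, adjusted p = 0.00391), and WDR12 rose 1.18-fold and fell to 0.888 times (0.00397). NPM1, NOP56 and NOP58 rose 1.23-fold, 1.22-fold and 1.12-fold in HH.

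In PF382 the steepest falls with romidepsin were in SRM, to 0.733 times (log2 change -0.45, SE 0.11, adjusted p = 0.00446), and NOB1, to 0.779 times (log2 change -0.36, SE 0.07, adjusted p = 0.000615). SRM stood at 107 and 103 CPM with and without romidepsin in the absence of azacitidine, and at 52.3 and 109 CPM at 500 nM. CAD, PES1, BOP1, NOLC1, RRS1, TCOF1 and WDR43 fell to between 0.786 and 0.842 times. SRM and BOP1 also differed between lines (adjusted p = 0.0054 and 0.00785), with log2 changes in HH of 0.28 and 0.19 that did not pass. In TLOm1 UBTF fell to 0.699 times, CAD to 0.742 times and NOB1 to 0.826 times, and ODC1 rose 1.21-fold (adjusted p = 0.00743, 0.00695, 0.00553 and 0.00536).

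Within PF382, the romidepsin ratio of the members varied with the azacitidine level. Its median was 0.09 with no azacitidine, -0.16 at 125 nM, -0.27 at 250 nM and -0.42 at 500 nM, and 7, 31, 30 and 31 of 33 members were lower. Over all genes tested the medians lay between 0 and 0.02 in PF382 and rounded to 0 in HH, TLOm1 and H9. In HH the member medians were 0.09, 0.23, 0.29 and 0.04 from no azacitidine to 250 nM, with 25, 32, 28 and 19 members higher. In TLOm1 they were 0.05, 0.01, 0.005 and -0.22 from no azacitidine to 500 nM, with 10, 16, 15 and 24 members lower. In H9 they were -0.01, 0.01, 0.01 and -0.09 up to 250 nM, with 20, 9, 11 and 26 members lower. The lowest median of each line was thus at its highest azacitidine dose. Each of these compares 1 library with 1 other, and no test was made. In PF382 13 members passed with all pairs, 2 without the pair at 500 nM, 5 without that at 250 nM, 6 without that at 125 nM and 22 without the pair that had no azacitidine. In HH, where the romidepsin dose was 1 nM alone and 1.25 nM in combinations, 12 members rose without the pair that had no azacitidine. In TLOm1 2 members passed without the pair at 500 nM, in place of 6.

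Azacitidine at any dose, matched on romidepsin, gave mostly positive estimates in H9 and mostly negative ones in TLOm1, a difference that was tested for single members only. Over all genes tested, the median log2 ratio of single treated libraries to untreated was 0 in H9 and between 0 and 0.03 in TLOm1. In H9 29 of 33 members had a positive estimate, with a median of 0.22 and 1 member called (5.86% of all genes), NOP2, which methylates large subunit ribosomal RNA. NOP2 stood at 123 and 119 CPM in the H9 libraries without azacitidine and between 136 and 182 CPM in the 6 with it, without overlap (1.34-fold, log2 change 0.42, SE 0.12, adjusted p = 0.037). In TLOm1 28 of 33 estimates were negative, with a median of -0.23 and 5 members lower (18.7% called, 7.68% lower), namely WDR12, UTP20, DDX21, WDR43 and NOP58. WDR12 fell most there, to 0.685 times (log2 change -0.55, SE 0.14, adjusted p = 0.00943), from 59.7 and 66.2 CPM without azacitidine to between 32.8 and 50.8 CPM with it. UTP20 fell to 0.727 times, DDX21 to 0.756 times, WDR43 to 0.764 times and NOP58 to 0.801 times (adjusted p = 0.0347, 0.0404, 0.038 and 0.0401).

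In PF382 azacitidine called MYC lower, to 0.569 times (log2 change -0.81, SE 0.19, adjusted p = 0.00924), and MYCN higher, with 8.33% of all genes called, 2.39% lower and 5.94% higher. MYC stood at 355 and 378 CPM in the libraries without azacitidine and between 125 and 249 CPM in the 6 with it. In HH POLR1A was the single member called (5.87% called), 1.34-fold higher (log2 change 0.43, SE 0.12, adjusted p = 0.0392). The MYC estimate was -0.33 in TLOm1 (SE 0.20, adjusted p = 0.232), -0.12 in HH (SE 0.20, adjusted p = 0.799) and -0.33 in H9 (SE 0.19, adjusted p = 0.347), and the test of equal effects did not pass for MYC (adjusted p = 0.274). The calls in HH and H9 were lost when single doses of HH, H9 or another line were left out. The count in TLOm1 was 1 without its libraries at 500 nM and 11 without those at 125 nM, and it fell to 2 or 3 when single doses of other lines were left out.

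Other genes of the MYC network and of ribosome production were followed in the combination at 250 nM, where 23% of all genes were called. Among 14 other MYC and MAX network genes tested of 15 listed, 3 rose and 2 fell. MYCL1, a further MYC paralogue, had a log2 change of 1.83 (SE 0.53, adjusted p = 0.0169), MLXIPL, a glucose-responsive member of the network, 1.89 (SE 0.63, adjusted p = 0.0323), and MLXIP 0.57 (SE 0.17, adjusted p = 0.0157). MNT, a repressor that competes with MYC for MAX, fell by 0.37 (SE 0.10, adjusted p = 0.0105), and TFAP4 fell by 0.44 (SE 0.11, adjusted p = 0.00815). Of 17 other polymerase I genes 4 fell and 0 rose, led by TAF1D (-0.36, SE 0.07, adjusted p = 0.00129), POLR2H (-0.31, adjusted p = 0.00578) and TAF1B (-0.28, adjusted p = 0.0296).

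Of 56 other small subunit factors 1 fell, NAT10, an RNA acetyltransferase (-0.29, adjusted p = 0.014). Of 53 other large subunit factors 3 fell and 1 rose. EFTUD1, which releases a blocking factor from new large subunits, had a log2 change of -0.44 (SE 0.05, adjusted p = 9.82e-06), and EIF6, that blocking factor, rose by 0.25 (adjusted p = 0.0194). DDX24 and NVL, a helicase and an ATPase of the same pathway, fell by 0.31 and 0.29 (adjusted p = 0.0173 and 0.00848). Of 12 other snoRNP genes ZNHIT3 fell (-0.33, adjusted p = 0.0097), the only one of that list to pass. Of 79 ribosomal protein genes 5 fell and 2 rose, including RPL22 at -0.30 (adjusted p = 0.00249), RPL14 at -0.21 (adjusted p = 0.0324), RPS26 at 0.35 (adjusted p = 0.00136) and RPL18 at 0.24 (adjusted p = 0.0254). Of 26 other polyamine and nucleotide genes 4 fell and 2 rose. SAT1, which breaks polyamines down, rose by 1.15 (SE 0.32, adjusted p = 0.0138) and OAZ1, the inhibitor of ODC1, by 0.19 (adjusted p = 0.0257). DHODH, the next enzyme of pyrimidine synthesis after CAD, fell by 0.41 (SE 0.11, adjusted p = 0.012), TYMS by 0.34 and PFAS by 0.34 (adjusted p = 0.0234 and 0.00656). Of 24 proliferation genes 5 fell and 0 rose, with CCNA2, a cyclin, at -0.49 (adjusted p = 0.000526) and AURKA, a mitotic kinase, at -0.34 (adjusted p = 0.017).

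Before treatment the members did not share 1 order of lines. The highest untreated level lay in TLOm1 for 14 members, in H9 for 9, in HH for 7 and in PF382 for 3. SRM, the most uneven after MYCN and MYC, stood at 447 CPM in TLOm1, 325 CPM in HH, 157 CPM in H9 and 103 CPM in PF382. NCL differed little, between 1357 CPM in H9 and 1705 CPM in PF382. With 1 untreated library in each line these orders have no error. PPAN ranged from 2.80 to 13.9 CPM over 32 libraries, and its gene reads through into a neighbour, which makes its count uncertain.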

How the data were processed

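The authors deposited 1 table of read counts per gene symbol for each of 32 libraries. The submitters' processing notes name STAR, DESeq2, limma and GRCh37.p2, and for the read counter, the annotation and the strand setting the entry is: not given in the sources used here. Both poly(A) selection and rRNA depletion appear in the labels. Counts were tested as deposited with edgeR 4.0.16 (R 4.3.3): TMM scaling, a minimum count of 10, quasi-likelihood F tests, and Benjamini-Hochberg adjustment over 17801 genes at 0.05. The fit of all groups had the cell line as a block. Libraries of 1 line deviated together, with correlations from 0.863 to 0.975 over 60 pairs. Line-specific effects came from fits with a term for each line, in which the doses of a line took the place of replicates. Alternatives used DESeq2 1.42.0, limma 3.58.1, other scaling, filters and left-out lines. Tests were checked on simulated counts. Log2 ratios between single libraries used CPM plus 0.1. Standard errors were taken from the log2 change and its F statistic. Reads carry no molecular identifiers, so the limit of 3 counts covers counting error only. Named with full statistics were MYC, MYCN and MAX against untreated, members called in a comparison (the 10 with the largest change where more passed), the 8 with the smallest adjusted p in tests of equal line effects, and from other lists the 3 largest called changes in each direction. One gene that this rule names is not reported here. The members and lists were chosen with earlier results of these data known. Promoters come from RefSeq on GRCh38.p14, whose coordinates were not mixed with the counts' build.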

Additional observations from a re-analysis of the deposited data

Results flagged for a closer look

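Romidepsin effects, matched on azacitidine dose, differed between the 4 lines for 14 of 33 members by an F test of equal effects (edgeR, adjusted over all genes), beside 33% of all genes tested. The adjusted p was 1.69e-05 for MYCN, 0.000177 for FBL, 0.00153 for NCL, 0.00391 for WDR43, 0.00397 for WDR12, 0.00448 for NPM1, 0.0054 for SRM and 0.00785 for BOP1. It was 0.0137 for ODC1, 0.0157 for NOLC1, 0.0254 for PES1, 0.0299 for NOB1, 0.031 for MYC and 0.0433 for POLR1B. The azacitidine effect differed between lines for MYCN, 1 of 33 members beside 10.7% of all genes tested, with an adjusted p of 0.0332.

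In 9 of 165 groups of 4 libraries, 1 line stood apart from the other 3 in its log2 ratio to untreated, by a gap above 0.829 of the range of the group. Chance gives about 1 in 20. Under the combination at 250 nM these were PF382 for POLR1B (-0.27) and HEATR1 (-0.26) and H9 for DKC1 (0.25). Under the combination at 125 nM they were TLOm1 for UBTF (-0.15) and RRP9 (-0.083), PF382 for TCOF1 (-0.14), and H9 for NOP2 (0.50) and CAD (0.13). With azacitidine at 125 nM it was H9 for TCOF1 (0.19).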

How the results depend on the processing

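No call of a single gene in the comparisons over lines or the dose slope reversed its direction, and only these were checked for it. Of their alternatives 277 stayed past the threshold and 216 lost it. Of the alternatives for counts of members called, 216 stayed close to the main count and 63 moved. In these counts of members called, the fit with only the compared groups and the fit with no replicate block (no cell line term) gave 0 and 0 for azacitidine at 250 nM, 0 and 0 for the combination at 250 nM, 0 and 0 for romidepsin added to azacitidine, 0 and 0 for azacitidine added to romidepsin, and 0 and 0 for 500 against 250 nM. That step also gave 0 in PF382 and TLOm1 alone, an alternative chosen after seeing the data. Romidepsin added to azacitidine gave 0 with DESeq2 size factors, 0 without a filter and 2 with DESeq2, in place of 1. The dose slope gave 11 with DESeq2 size factors, 11 at a minimum count of 50 and 1 without the 500 nM libraries, in place of 17. Azacitidine in TLOm1 gave 3 without a filter, and its difference between lines gave 2 at a minimum count of 50. Leaving out 1 line gave 0 to 4 for azacitidine at 250 nM (0 without HH and 0 without H9), 0 to 1 for romidepsin added, 1 to 3 for azacitidine added, 0 to 16 for the step and 1 to 25 for the slope. Leaving out 1 dose of 1 line gave 2 to 22 for romidepsin in PF382, 2 to 7 in TLOm1, and 10 to 25 for its difference between lines. For azacitidine it gave 1 to 11 in TLOm1, 0 to 2 in HH, 0 to 3 in H9 and 0 to 5 for the difference. The cause of these moves was not tested. Some of these fits had fewer samples, while others used all 32 libraries. MYCN in PF382 and H9, at 3 to 74 counts, is where depth limits precision most.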
